A study of Mus musculus with 6 samples.

Results

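The 8 genes described here mark the tissues that surround the cranial neural tube of the mouse embryo. They are the surface ectoderm genes Trp63, Ovol1 and Cldn1, the neural crest gene Snai2, and the mesenchyme and matrix genes Cd248, Fstl1, Col8a1 and Efemp2. They were chosen by name, from the rows of chromosome 16 and of the first 10 Mb of chromosome 19, and all 8 had a row among the 15734 rows of the table. Polyadenylated RNA was sequenced from 3 embryos homozygous for BAF155 msp3 and from 3 homozygous wild-type embryos, on a mixed background of C57BL/6J and 129/SvImJ that both genotypes share. The msp3 mutation is a missense change in Smarcc1, the gene of BAF155, on which the BAF complex that remodels chromatin is built, and the mutants are labelled as having a neural tube defect (NTD). Tissue was cut from the head above the level of the pharyngeal arches and otic vesicles at embryonic day 9.5. Embryos had 19 to 21 somites by their labels, or 21 to 23 by the text on the design. The comparison asks how the transcriptome of mutant cranial tissue differs just after the neural tube has closed in normal embryos.

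The neural folds are lifted and joined with help from the tissues beside them. The surface ectoderm is continuous with the neural folds at their edges and fuses over the closing tube, the neural crest leaves the same edges by an epithelial-to-mesenchymal transition, and the cranial mesenchyme, part of which comes from the crest, expands beneath the folds and lays down matrix. Snail and Ovo family zinc-finger proteins are known to act in opposite directions on that transition, Snail proteins repressing epithelial genes and Ovo-like proteins maintaining them. In these bulk samples, fewer cells of a type and less RNA per cell cannot be told apart.

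None of the 8 genes differed between genotypes after adjustment over the 13329 rows tested (limma, Benjamini-Hochberg adjusted p from 0.404 to 0.974). The background was 0.0225% of rows called, which is 3 rows, all lower in mutants. The 3 surface ectoderm genes and Snai2 had mutant means between 1.01 and 1.20 times the wild-type level, and the 4 mesenchyme genes between 0.77 and 0.90 times, on the log2(value + 1) scale. Fstl1 was the one gene whose genotypes did not overlap, with every mutant library below every wild-type library, a pattern found in that direction in 10.4% of all rows tested. Of the 719 rows tested on chromosome 16 and the first 10 Mb of chromosome 19, 51 had that pattern. All 4 mesenchyme genes had their lowest value in mutant 2. The 8 members and the gene lists were picked with earlier results of these data known, and with 3 embryos against 3 the smallest two-sided p of an exact permutation test is 0.1.

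The libraries held 63132575 to 82067578 reads in rows for the mutants and 46170743 to 64024789 for the wild types, and counting alone gave an error of at most 4.90% for every member but Ovol1 and Col8a1. Values are normalized read counts as the authors deposited them. The row named Smarcc1 had a mean of 41152 ± 9892 in mutants and 51848 ± 9944 in wild type (SD, n = 3 each), with overlapping values. It lies on chromosome 9, where 1 of 14 rows named for broadly expressed gene families (7.14%) averaged at least 1000, and a missense allele need not change the transcript, so it does not check the genotype labels. On chromosome 16 and the first 10 Mb of chromosome 19, 27 of 29 such rows did (93.1%), and outside these stretches 89 of 316 (28.2%). Near the members, Cfl1 (cofilin, an actin-severing protein) stood at 97676, 0.014 Mb from Efemp2 and 0.063 Mb from Ovol1. It is broadly expressed but is not of the families counted above. Mrpl11 (a mitochondrial ribosomal protein) stood at 7963, 0.105 Mb from Cd248, and Tomm70a (a mitochondrial import receptor) at 34075, 0.551 Mb from Col8a1. Mcm4 (a subunit of the replicative helicase) stood at 43999, 0.923 Mb from Snai2. Ndufb4 (a respiratory chain subunit), 0.156 Mb from Fstl1, stood at 939, below the level of 1000. The nearest such row to Trp63 and Cldn1 was Eif4a2 (a translation initiation helicase) at 36053, at 2.68 and 3.25 Mb. Names were thus checked by neighbourhood, and not for each row. Mutant 2 was the lowest library in 30.5% and the highest in 27.9% of all rows tested, more often than any other library in either direction.

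Sequence just before the start of transcription was available for 4 of the 8 genes, matched by symbol in RefSeq on GRCm38.p6, which is not the mm9 build that the submitters' processing notes name. Windows of 250 bases are shown for 3 of them: Cldn1, an epithelial gene that Snail proteins are known to repress, Fstl1, the gene with no overlap between genotypes, and Col8a1, the one with an E-box. They lie at chr16:26371840-26372089 (minus strand) for Cldn1, chr16:37776805-37777054 (plus strand) for Fstl1 and chr16:57754738-57754987 (minus strand) for Col8a1, and each ends at the base before the annotated start. Capitals mark the GC box GGGCGG, which Sp family factors bind, and the E-box CAGGTG, which Snail proteins bind, each on either strand.
Cldn1: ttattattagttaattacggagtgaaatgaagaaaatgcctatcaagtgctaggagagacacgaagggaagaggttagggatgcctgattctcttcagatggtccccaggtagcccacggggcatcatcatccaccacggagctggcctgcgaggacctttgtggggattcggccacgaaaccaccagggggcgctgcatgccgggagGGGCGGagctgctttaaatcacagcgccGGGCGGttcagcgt
Fstl1: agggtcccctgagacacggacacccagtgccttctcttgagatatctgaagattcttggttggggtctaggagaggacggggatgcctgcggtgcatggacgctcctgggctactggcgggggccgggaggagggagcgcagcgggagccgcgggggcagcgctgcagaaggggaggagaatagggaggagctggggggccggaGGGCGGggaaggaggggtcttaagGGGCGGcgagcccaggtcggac
Col8a1: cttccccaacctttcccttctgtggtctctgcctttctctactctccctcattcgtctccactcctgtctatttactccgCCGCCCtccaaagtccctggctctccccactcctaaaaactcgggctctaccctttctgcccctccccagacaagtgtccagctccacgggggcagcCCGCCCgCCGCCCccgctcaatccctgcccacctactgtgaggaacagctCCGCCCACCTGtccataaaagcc
Cldn1 and Fstl1 each held 2 GC boxes, at 42 and 14 bases before the start in Cldn1 and at 46 and 22 bases in Fstl1. Col8a1 held 4 GC boxes and 1 E-box, all on the strand opposite to the one printed. The E-box, 18 bases before the start, shares its first base as printed with the last base of a GC box. No window of these 3 held TATAAA on either strand. Over 32851 windows of the same length, 32.7% held a GC box, 17.2% the E-box and 12.4% TATAAA. Efemp2, with 3 annotated starts, had at least 2 GC boxes in each window and no E-box. A match is a description of the letters and shows no binding.

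The genes differed widely in level once the counts were divided by exon length. Fstl1, a secreted glycoprotein of the follistatin family that is known to antagonise bone morphogenetic protein signalling, had 4166 ± 788 normalized reads per kb in mutants and 5357 ± 344 in wild type (SD, n = 3 each). Cd248, also called endosialin, a membrane protein of mesenchymal cells and pericytes, came next with 1134 ± 255 per kb in mutants and 1254 ± 134 in wild type (SD, n = 3 each). Efemp2, a matrix protein of elastic fibres also known as fibulin-4, averaged 528 ± 47.2 per kb and Snai2 505 ± 41.9 over the 6 libraries (SD, n = 6), and Efemp2 was above Snai2 in 4 of the 6, so that their order is not set. Trp63 at 142 ± 45.6 and Cldn1 at 116 ± 17.9 per kb (SD, n = 6) overlapped in the same way, with Trp63 above in 4 of 6 libraries. Ovol1 at 32.0 ± 9.34 and Col8a1 at 11.6 ± 2.45 per kb (SD, n = 6) were lowest, and each other neighbouring pair in this order was apart in all 6 libraries. The counting rule of the authors is not given in the sources used here, and the lengths are of all annotated exons, so a transcript that uses few of them is placed too low.

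**Figure D1:**
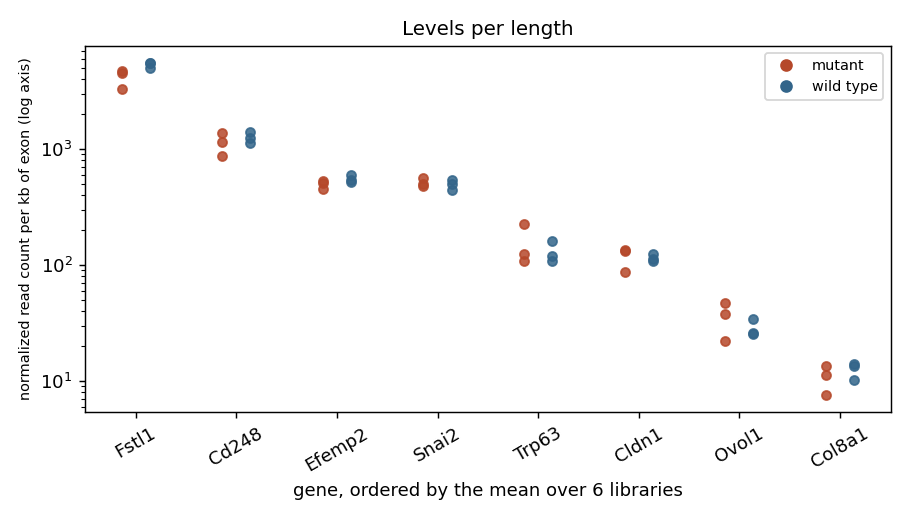
Normalized read count per kb of annotated exon (log axis) of the 8 genes, ordered by their mean over the 6 libraries. Points are libraries, mutants left of wild types for each gene. Levels ran from 4761 per kb for Fstl1 to 11.6 per kb for Col8a1, and the genotypes share the same order apart from the pairs that overlap.

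Trp63, on chromosome 16 at 25683763 to 25892088 (GRCm38), encodes the transcription factor p63, which drives the stratified epithelial programme of the surface ectoderm. Its normalized read counts were 1891, 1045 and 915 in mutants 1, 2 and 3, and 1007, 907 and 1364 in wild types 1, 2 and 3. Mutant 1 stood above every other library, and the other two mutants lay within the wild-type range. The log2 difference was 0.18, with a 95% interval of -0.42 to 0.78 (limma, adjusted p = 0.795). Without mutant 1 it turned to -0.14, so no direction was read.

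Ovol1, on chromosome 19 at 5549137 to 5560575, encodes an Ovo-like zinc-finger repressor that maintains epithelial identity. It had 131, 163 and 76.8 in mutants, against 89.2, 119 and 89.4 in wild types. The mutants held both the highest library, mutant 2, and the lowest, mutant 3. Its log2 difference came to 0.26, with an interval of -0.38 to 0.90 (limma, adjusted p = 0.721), and it was 0.03 without mutant 2 and 0.57 without mutant 3. These values rest on 65 to 161 reads per library, for which counting alone gives an error of 7.88% to 12.4%. An annotated pseudogene on the other strand covers 19.8% of the exon bases of Ovol1, and the use of strand in counting is not given in the sources used here, so reads from both could have been joined.

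Cldn1, on chromosome 16 at 26356645 to 26371839 and 0.576 Mb from Trp63, encodes claudin-1, a tight junction protein of epidermis. It had 658, 423 and 633 in mutants, and 604, 521 and 540 in wild types. The genotypes had nearly equal means, 571 ± 129 in mutants and 555 ± 43.5 in wild type (SD, n = 3 each), and mutant 2 was the lowest library. On the log2 scale the difference was 0.02, with an interval of -0.38 to 0.41 (limma, adjusted p = 0.974), and its sign turned in 4 of the 6 fits that leave out 1 library. A difference of up to 1.33-fold higher or to 0.77 times the wild-type level lies within that interval.

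Snai2, on chromosome 16 at 14705852 to 14709395, encodes Slug, a Snail family repressor expressed in migrating neural crest. It had 1142, 968 and 1018 in mutants, and 1013, 901 and 1084 in wild types. Its highest library was at 1.27 times its lowest, and the genotypes were interleaved. Mutant minus wild type was 0.06 on the log2 scale, with an interval of -0.18 to 0.31 (limma, adjusted p = 0.83), so that changes beyond 0.88 or 1.24 times the wild-type level lie outside the interval. It was -0.0053 without mutant 1 and -0.01 without wild type 2, so its sign was not read.

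Fstl1, on chromosome 16 at 37777055 to 37836516, had normalized read counts of 23288, 16056 and 22066 in mutants 1, 2 and 3, against 27415, 24376 and 27181 in wild types 1, 2 and 3. Every mutant value lay below every wild-type value, and mutant 2 was farthest below. The mean was 20470 ± 3871 in mutants and 26324 ± 1691 in wild type (SD, n = 3 each), or -0.38 ± 0.13 as the log2 difference and its standard error, with an interval of -0.68 to -0.08. The unadjusted limma p was 0.0181, a level reached in the lower direction by 5.52% of all rows tested, and the adjusted p was 0.404. The exact permutation test, two-sided, gave p = 0.1. Without mutant 2 the log2 difference was -0.21 (limma, adjusted p = 0.303), and the other 2 mutants were still below the lowest wild type. Over 18 alternatives the sign was negative each time and the adjusted p ran from 0.203 to 0.745.

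Cd248, on chromosome 19 at 5068078 to 5070640, had 3026, 2258 and 3582 in mutants, and 3236, 2934 and 3629 in wild types. Mutant 2 was below all other libraries, and mutants 1 and 3 lay within the wild-type range. The log2 difference was -0.16, with an interval of -0.53 to 0.20 (limma, adjusted p = 0.692), and without mutant 2 it was 0.02.

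Col8a1, on chromosome 16 at 57624256 to 57754737, encodes a short-chain collagen of basement membranes. It had 104, 58.8 and 88.6 in mutants, and 79.6, 105 and 108 in wild types, with the genotypes overlapping and mutant 2 lowest. Here the log2 difference stood at -0.24, with an interval of -0.81 to 0.33 (limma, adjusted p = 0.709), and without mutant 2 it was -0.0074. The counts were 58 to 120 reads per library, with a counting error of 9.13% to 13.1%.

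Efemp2, on chromosome 19 at 5473946 to 5482520 and 0.0766 Mb from Ovol1, had 2018, 1719 and 1947 in mutants, and 1978, 2059 and 2270 in wild types. Mutant 1 was above wild type 1, and the other mutants were below all wild types. The log2 difference was -0.15, with an interval of -0.36 to 0.06 (limma, adjusted p = 0.552), and without mutant 2 it was -0.08. Its exons share 173 bases, 4.57% of their length, with Mus81 on the other strand.

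**Figure D2:**
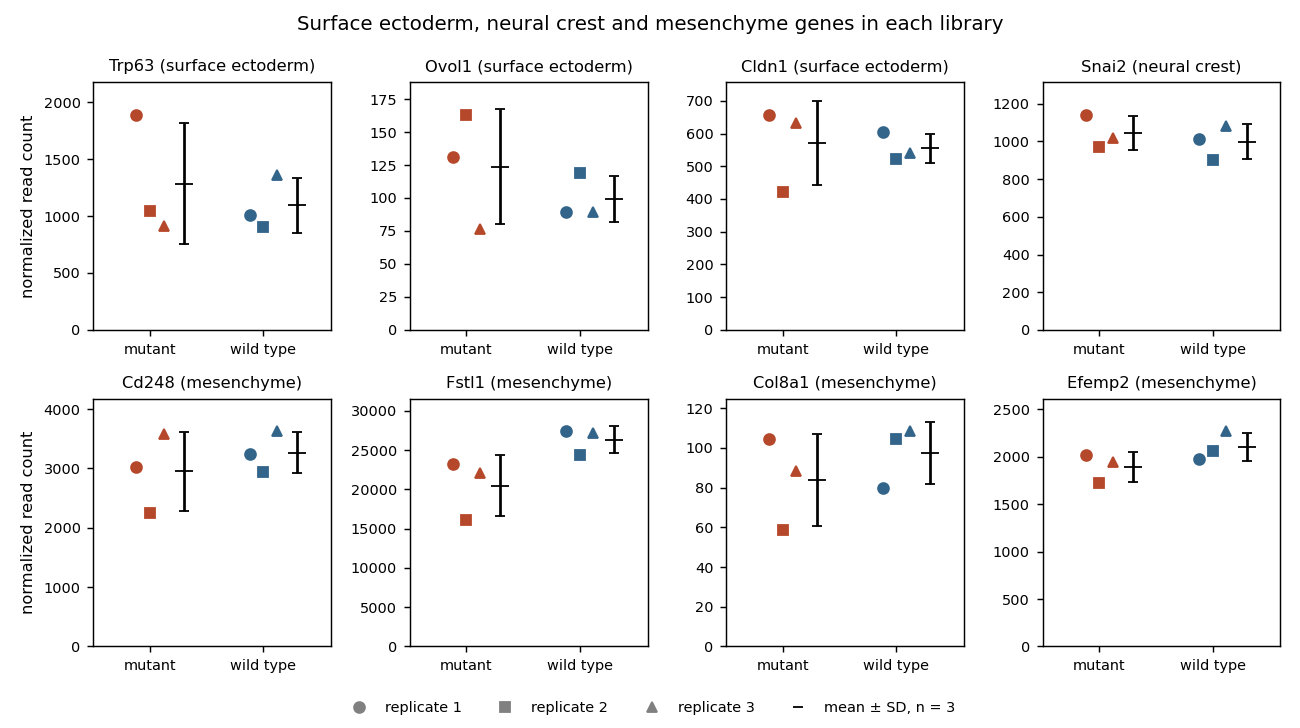
Normalized read count (linear axis from 0) of each gene in the 3 mutant libraries, left, and the 3 wild-type libraries, right. Marker shapes give the replicate number and black bars the mean ± SD (n = 3). The mutant and wild-type points are apart for Fstl1 (16056 to 23288 against 24376 to 27415) and overlap for the other 7 genes, and mutant 2 is the lowest point in Cldn1 and in the 4 mesenchyme genes.

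Leaving out 1 library moved the log2 difference by more than its own size in 5 of the 8 genes, the exceptions being Fstl1, Col8a1 and Efemp2. Without mutant 2 the log2 differences of Cd248 and Col8a1 came close to 0, and those of Fstl1 and Efemp2 were nearer to 0. For Cldn1 it had the other effect, with a log2 difference of 0.22 without mutant 2 and 0.02 with all libraries. The spread within a genotype, as the SD of log2 values, was larger in mutants than in wild type for 7 of the 8 genes, Snai2 being the exception. Across all rows tested it was larger in mutants for 68.8%, with a median SD of 0.187 in mutants and 0.11 in wild type. The medians over the 8 genes were 0.345 in mutants and 0.144 in wild type. Without mutant 2, the SD was larger in mutants for 6324 of the 13329 rows tested. Its median over these rows was then 0.105 in mutants and 0.11 in wild type. The mutant SD then rests on 2 libraries and the wild-type SD on 3. An SD of fewer values tends to come out smaller, so these medians do not show that the spread is equal.

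**Figure D3:**
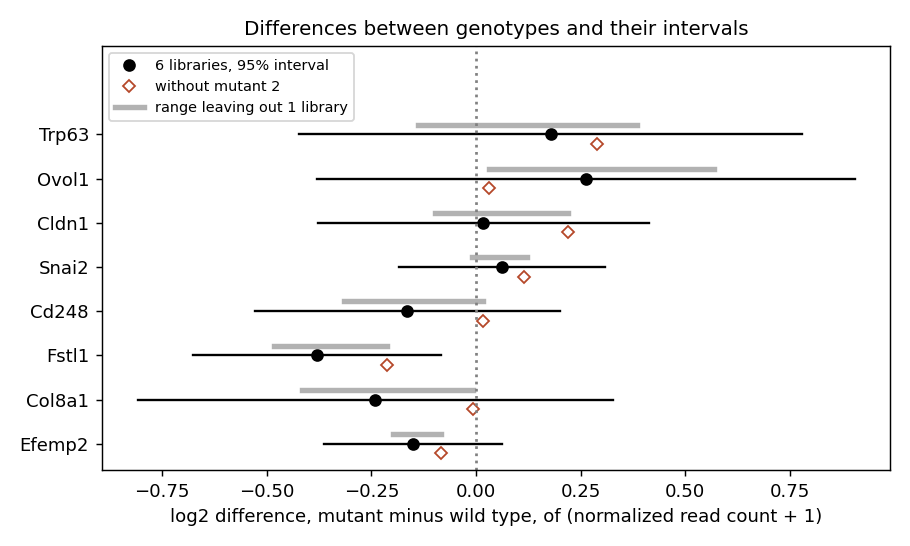
Log2 difference, mutant minus wild type, of (normalized read count + 1) for the 8 genes. Black points and lines are the limma estimate and 95% interval from 6 libraries, grey bars the range when each library is left out in turn, and open diamonds the value without mutant 2. The interval of Fstl1, -0.68 to -0.08, is the one that lies below 0, and the diamonds of Cd248 (0.02) and Col8a1 (-0.0074) lie at 0.

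The members were set beside further genes of the same tissues from the same stretches of the genome. Of the surface ectoderm and epithelium list, 17 genes were tested, members included: 0 were called, 5 were on the higher and 12 on the lower side, and the median log2 difference was -0.09. The 14 that are not members had 2 on the higher and 12 on the lower side, with a median of -0.13. The other genes on the higher side were the members Trp63, Ovol1 and Cldn1. All 13329 rows had 6518 on the higher and 6811 on the lower side and a median of -0.0047, and the 719 rows tested in these stretches had 392 higher and 327 lower and a median of 0.023. The summed level of the list was 54320 to 58568 in mutants and 58296 to 59674 in wild type. Emp2, a tetraspan epithelial membrane protein, had 229, 243 and 272 in mutants, against 324, 299 and 390 in wild types, without overlap (limma log2 difference -0.44, adjusted p = 0.404). Cxadr, a tight junction adhesion molecule that serves as the coxsackievirus receptor, had 12810 ± 1357 in mutants and 14321 ± 445 in wild type (SD, n = 3 each), with overlapping values, and its log2 difference of -0.17 was -0.08 without mutant 2. Cldn8, another claudin, and Liph, a lipase, were on the higher side with log2 differences of 0.04 each, and Liph ran from 30.7 in mutant 1 to 150.0 in mutant 2.

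Of the neural crest list, 10 genes were tested, 0 were called, and 2 were on the higher and 8 on the lower side, with a median log2 difference of -0.08. With Snai2 left out, 1 was higher and 8 lower, with a median of -0.09. The summed level of the 10 genes was 123545 to 128546 in mutants and 130833 to 133780 in wild type, without overlap. Crkl, a signalling adaptor needed for crest derivatives, had 12399, 10604 and 11878 in mutants, against 12924, 12773 and 12745 in wild types, without overlap (limma log2 difference -0.14, adjusted p = 0.481). Alcam, a cell adhesion molecule, had 2667 ± 667 in mutants and 3311 ± 567 in wild type (SD, n = 3 each), with overlap and a log2 difference of -0.33, and that of Dgcr6 was 0.16. Without mutant 2 the log2 difference was -0.08 for Crkl, -0.11 for Alcam and 0.02 for Dgcr6.

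Of the mesenchyme and extracellular matrix list, 23 genes were tested and 0 were called. Of these, 7 were on the higher and 16 on the lower side, with a median log2 difference of -0.16, which was -0.026 without mutant 2. Among the 19 that are not members, 7 were higher and 12 lower, with a median of -0.11, or -0.026 without mutant 2. The summed level of the 23 genes was 218336 to 233424 in mutants and 224794 to 237727 in wild type. Ahnak alone ran from 121017 in mutant 3 to 146321 in mutant 2, its highest library. The sum thus largely reflects that row and not the list as a whole. Mutant 2 was the lowest library in 14 of the 23 (60.9%), and in 10 of the 19 that are not members (52.6%). It was lowest in 30.5% of all rows tested and in 22.7% of the 719 rows tested in these stretches. In those 719 rows it was the highest library in 39.1%. Lpp, a LIM protein of focal adhesions, had 5703, 4693 and 5476 in mutants, against 6988, 6394 and 6166 in wild types, without overlap (limma log2 difference -0.30, adjusted p = 0.396). Ccdc80, a secreted matrix protein, had 1690, 997 and 1027 in mutants, against 1619, 1867 and 1990 in wild types, and mutant 1 lay within the wild-type range (limma log2 difference -0.60, adjusted p = 0.403). On the higher side, Lrrc15, a leucine-rich repeat membrane protein, had 61.0 ± 22.3 in mutants and 42.5 ± 7.93 in wild type (SD, n = 3 each). Boc, a co-receptor for hedgehog ligands, had 7784 ± 889 in mutants and 6880 ± 624 in wild type (SD, n = 3 each), both with overlap, and their log2 differences of 0.47 and 0.18 were 0.20 and 0.09 without mutant 1.

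**Figure D4:**
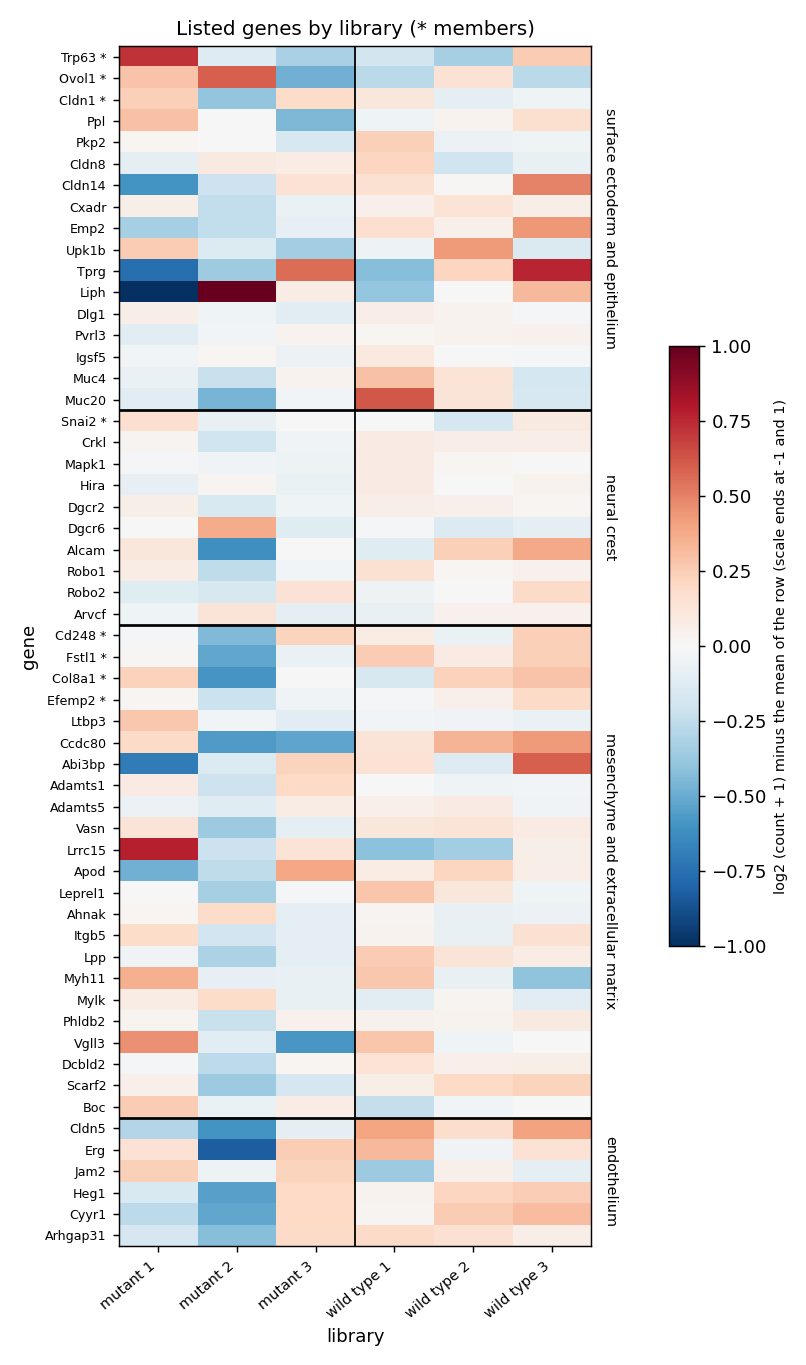
Log2 (normalized read count + 1) minus the mean of the row, for tested genes of the surface ectoderm, neural crest, mesenchyme and endothelium lists (rows; members have an asterisk) in the 3 mutant and 3 wild-type libraries (columns, mutants left). Colours end at -1 and 1. Mutant 2 is below the row mean for most mesenchyme and endothelium genes and holds the lowest value in 14 of 23 and 5 of 6 of them.

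Markers of other cell types were read in the same libraries, and their part in the values above was not tested. Of 6 endothelium genes tested, mutant 2 was the lowest library in 5, and 1 was on the higher and 5 on the lower side, with 0 called. Their summed level ran from 13845 to 20185 in mutants and from 17991 to 19810 in wild type. The log2 difference of Cldn5, the claudin of endothelium, was -0.65 (limma, adjusted p = 0.318), that of Cyyr1 -0.39 (-0.23 without mutant 2) and that of Jam2, a junctional adhesion molecule, 0.27. Of 11 neural genes 9 were on the higher side and 0 were called, and their summed level was 24485 to 27138 in mutants and 22679 to 23786 in wild type, without overlap. Sst, the neuropeptide somatostatin, had 971 ± 294 in mutants and 171 ± 125 in wild type (SD, n = 3 each). Its wild-type libraries ran from 32.9 to 278, and its adjusted p was 0.331 (limma). Gap43, a growth-cone protein, had 6826 ± 310 in mutants and 5546 ± 409 in wild type (limma, adjusted p = 0.331). Sst and Gap43 hold a large part of the difference between the sums. Nrxn2, a presynaptic adhesion protein, and Gng3, a G protein subunit, had log2 differences of -0.03 and -0.02. Of 5 blood genes 4 were on the higher side and 0 were called, with sums of 4018 to 4605 in mutants and 3952 to 4329 in wild type. Gp1bb, a platelet glycoprotein, had a log2 difference of 0.43, Runx1, a blood transcription factor, 0.41, and Klhl6 -0.43. Of 4 striated muscle genes 2 were on the higher side and 0 were called, with sums of 5320 to 6147 in mutants and 5889 to 6177 in wild type. Actn3, Pygm, Srl and Popdc2 had log2 differences of 0.53, 0.17, -0.20 and -0.04, and Srl, a sarcoplasmic reticulum protein, stood at 3964 to 4744 in mutants and 4899 to 5163 in wild type. No marker of these 4 lists that has a row was at 0.

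Among rows of the same stretches with a mean of at least 100, the one whose log2 values followed each member most closely over the 6 libraries was picked from about 595 rows, so high values of r arise easily and are given as a description. For Fstl1 it was Crkl (Pearson's r = 0.977), for Col8a1 Alcam (r = 0.981), for Cd248 Gsk3b, a kinase of Wnt signalling (r = 0.947), and for Cldn1 Il1rap, an interleukin receptor subunit (r = 0.954). For Ovol1 it was Tbccd1 (r = 0.991), although that row moved little, from 3521 in mutant 3 to 3931 in mutant 2. For Trp63 it was Ifnar2, an interferon receptor subunit (r = 0.952), and for Snai2 it was Trp63 (r = 0.857). For Efemp2 it was the row named Mir1306 (r = 0.962), which lies wholly within an exon of Dgcr8 on the same strand, so that its reads cannot be told apart from those of Dgcr8. Fstl1 had 41 rows with r above 0.9, against 0 to 10 for the other members.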

How the data were processed

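Each of the 6 libraries came from polyadenylated RNA of the cranial tissue of one E9.5 embryo, with libraries made with the Illumina TruSeq kit, per the labels' protocols. The submitters' processing notes name the tools CASAVA 1.7 and bedtools and the build mm9, without their roles. The counting rule and annotation: not given in the sources used here. The authors deposited a normalized signal per gene row, in which each value was a whole multiple of 1 step per library (100% of values, tolerance 0.001 reads), so whole reads were recovered. A further 12 columns were not used. Of 15734 rows, 14322 had a GRCm38 gene of the same symbol, 1287 one with that symbol as a synonym, and 125 had none; gene positions are those of GRCm38 and exon lengths those of GENCODE M21.

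The comparison was fitted on all 13329 rows with a mean of at least 10, as log2(value + 1), with limma 3.58.1 (mean-variance trend, R 4.3.3), two-sided, calling a Benjamini-Hochberg adjusted p below 0.05. Differences given as log2 understate changes of low rows. edgeR 4.0.16 and DESeq2 1.42.0 were run on recovered reads as alternatives, and Python 3.11.15 was used for the rest. The limma step was tested on simulated data. The members and lists were chosen with earlier results of these data known. Named were the 8 members, up to 2 genes of smallest p in each direction per list, and the row most like each member. Labels describe separate embryos. No library repeated another of its genotype: read counts differed beyond sampling noise (chi-square over its degrees of freedom 11.3 to 93.8). Same-numbered libraries gave no sign of pairing (correlations of deviations -0.0448, -3e-04 and 0.0585).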

Additional observations from a re-analysis of the deposited data

How the results depend on the processing

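All 18 alternatives were planned. The number of the 8 members called was 0 in each, edgeR and DESeq2 on recovered reads included. The number of rows called over the whole table was 3 as reported, 5 with quantile normalization, 5 with equal medians, 5 with a threshold of 0.1, 60 with array quality weights, 155 with DESeq2, 2 with edgeR, 0 with limma without trend and 0 to 14 without single libraries; the cause was not tested. Signs of members that did not pass turned without single libraries, where the log2 difference ran from -0.1381 to 0.3851 for Trp63, -0.098 to 0.2205 for Cldn1, -0.0102 to 0.1225 for Snai2 and -0.3159 to 0.0169 for Cd248. It ran from -0.4818 to -0.2136 for Fstl1, -0.4161 to -0.0074 for Col8a1, -0.1983 to -0.0827 for Efemp2 and 0.0306 to 0.5696 for Ovol1, with no turn. Among the other named genes it ran from -0.0505 to 0.1557 for Cldn8, -0.5089 to 0.616 for Liph, -0.0683 to 0.015 for Nrxn2, -0.0698 to 0.0269 for Gng3 and -0.5165 to 0.4688 for Popdc2. With array quality weights it was -0.7165 for Liph and 0.3551 for Popdc2, which was also 0.1456 with edgeR and 0.1504 with DESeq2. Cldn5 passed with array quality weights (limma, adjusted p = 0.0445) and with DESeq2 (adjusted p = 0.00176). With the replicate block 3 rows were called and 0 members, and the block changed no call of a member. Counting error was 7.88% to 12.4% for Ovol1 and 9.13% to 13.1% for Col8a1, below their spread among mutants (CV of 35.3% and 27.6%), and the precision of each member rests on 3 embryos per genotype.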
